A study of Mus musculus with 6 samples.

Results

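The laminin chain genes were followed in RNA-seq libraries of 4T1 spheroids. The 8 members were Lama1, Lama3, Lama4, Lama5, Lamb1, Lamb2, Lamb3 and Lamc1, taken by gene symbol through their Ensembl identifiers out of 48820 genes in the count table. 4T1 is a line of mouse mammary carcinoma cells, labelled triple-negative and grown here as spheroids in RPMI with 10% serum. WT spheroids (n = 3) came from the unmodified line, and dKO spheroids (n = 3) from a line in which the Hippo pathway kinases LATS1 and LATS2 had been knocked out. Both groups share the line, the spheroid culture and the medium, and the labels name no other allele or agent. They call the 3 libraries of a group biological replicates but do not say how they were raised or whether the dKO line is 1 clone. The p-values therefore rest on library-to-library spread alone, and that spread may be technical.

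Laminins are secreted trimers of 1 alpha, 1 beta and 1 gamma chain, joined along a coiled coil, and they form the sheet of the basement membrane that epithelial cells sit on. The alpha chain carries the globular domains that bind integrins and dystroglycan, whereas the beta and gamma chains shape the trimer and its links to neighbouring laminins, nidogen and agrin. Epithelial cells deposit trimers with the chain encoded by Lama3 or by Lama5, and the Lama3 chain pairs with that of Lamb3 in the trimer that anchors hemidesmosomes. The study's title names integrins, so expression of these integrin ligands was compared between the genotypes.

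Of the alpha chain genes, Lama3 nearly disappeared in the libraries labelled dKO, Lama5 was moderately lower, and Lama1 and Lama4 had no counts in any library. Of the beta chain genes, Lamb1 fell, Lamb2 rose and Lamb3 did not pass the test. The gamma chain gene Lamc1 fell. Promoters of 4 of the 8 members were present in the RefSeq table used here (GRCm38.p6), and 1 is shown for each to set genes that fell beside 1 that rose and 1 that was not called. Each runs 5′ to 3′ on the gene's own strand, from 250 bases before to 50 bases after the annotated start. Capitals mark matches, on either strand, to GGGCGG (the GC box bound by SP1) or GGAATG (the core bound by TEAD factors, the DNA-binding partners of YAP and TAZ).
Lama5 (chr2:180225810-180226109, minus strand, lower in dKO): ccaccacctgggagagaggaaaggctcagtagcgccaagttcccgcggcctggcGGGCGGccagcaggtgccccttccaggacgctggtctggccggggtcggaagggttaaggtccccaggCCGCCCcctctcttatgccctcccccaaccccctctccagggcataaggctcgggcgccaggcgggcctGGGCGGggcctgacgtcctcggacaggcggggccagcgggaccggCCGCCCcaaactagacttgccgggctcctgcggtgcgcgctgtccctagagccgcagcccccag
Lamb1 (chr12:31265043-31265342, plus strand, lower in dKO): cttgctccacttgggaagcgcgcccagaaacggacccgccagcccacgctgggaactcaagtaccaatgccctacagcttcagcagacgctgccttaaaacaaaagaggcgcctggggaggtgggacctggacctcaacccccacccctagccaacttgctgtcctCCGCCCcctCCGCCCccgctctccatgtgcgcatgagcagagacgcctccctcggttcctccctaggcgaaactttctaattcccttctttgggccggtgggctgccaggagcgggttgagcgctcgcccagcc
Lamb2 (chr9:108479612-108479911, plus strand, higher in dKO): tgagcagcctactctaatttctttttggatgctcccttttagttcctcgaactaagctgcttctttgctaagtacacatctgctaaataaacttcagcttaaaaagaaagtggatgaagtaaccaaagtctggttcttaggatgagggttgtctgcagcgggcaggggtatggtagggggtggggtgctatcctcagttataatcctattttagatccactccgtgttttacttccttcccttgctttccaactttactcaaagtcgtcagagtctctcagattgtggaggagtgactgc
Lamb3 (chr1:193301993-193302292, plus strand, the downstream of 2 listed starts, not called): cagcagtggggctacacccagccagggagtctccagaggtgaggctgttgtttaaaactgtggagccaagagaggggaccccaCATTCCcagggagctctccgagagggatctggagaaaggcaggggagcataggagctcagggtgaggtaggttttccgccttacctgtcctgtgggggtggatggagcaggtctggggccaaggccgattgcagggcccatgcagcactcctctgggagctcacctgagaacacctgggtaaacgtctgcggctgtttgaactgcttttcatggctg

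These windows differ in base composition. The Lama5 window held 72.7% G and C, the Lamb1 window 63.7%, each Lamb3 window 59.3% and the Lamb2 window 44.0%. The median was 52.7% over 32817 mouse promoters of the same length. Lama3 and Lamc1, which also fell, had no promoter entry. GC boxes stood in the Lama5 window 4 times and in the Lamb1 window 2 times, and 35.6% of all promoters hold at least 1. The only TEAD core was in the downstream Lamb3 window, 167 bases before its start, and 14.7% of all promoters hold this motif. No window held TGANTCA, the AP-1 site (7.81% of all promoters), or TATAAA, the TATA box (13.6%), and the other Lamb3 window held none of the 4 motifs. A match is a run of letters, and binding was not measured.

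The values were estimated read counts per gene, with 38194478 to 49630116 counts per library, and levels are given as CPM (counts relative to the library total) scaled by the TMM method. The deposited values piled up at 4 counts, so 1 read pair was taken as 4 counts. On that reading, the counts given here are larger than the numbers of read pairs. The floor of detection was set at 12 counts per library (0.242 to 0.314 CPM before TMM scaling), for counting error only. Differences were tested over all 15807 genes that passed a filter on low counts with edgeR's quasi-likelihood test, and calls were made below 0.05 after Benjamini-Hochberg adjustment. Of these genes 57.3% were called, 28.6% as higher and 28.7% as lower in the libraries labelled dKO, and 65.6% had groups without overlap (32.7% with dKO above WT and 33.0% below). WT 2 and dKO 3 stood apart within their groups. WT 2 differed from WT 1 and WT 3 by a median of 0.188 and 0.209 on the log2 scale over the tested genes, against 0.111 between those libraries, and dKO 3 differed from dKO 1 and dKO 2 by 0.189 and 0.200, against 0.119. Lats1 fell from 153 ± 6.36 to 50.9 ± 2.55 CPM (SD, n = 3), but Lats2 rose from 27.2 ± 4.01 to 77.9 ± 12.5 CPM. Counts per gene do not show small changes in sequence, so the knockout of Lats2 could not be checked. Every direction given here is between libraries as labelled. Ccn2 and Ankrd1, known targets of YAP and TAZ, had log2 fold changes of 4.26 ± 0.08 and 2.33 ± 0.16 (SE).

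**Figure D1:**
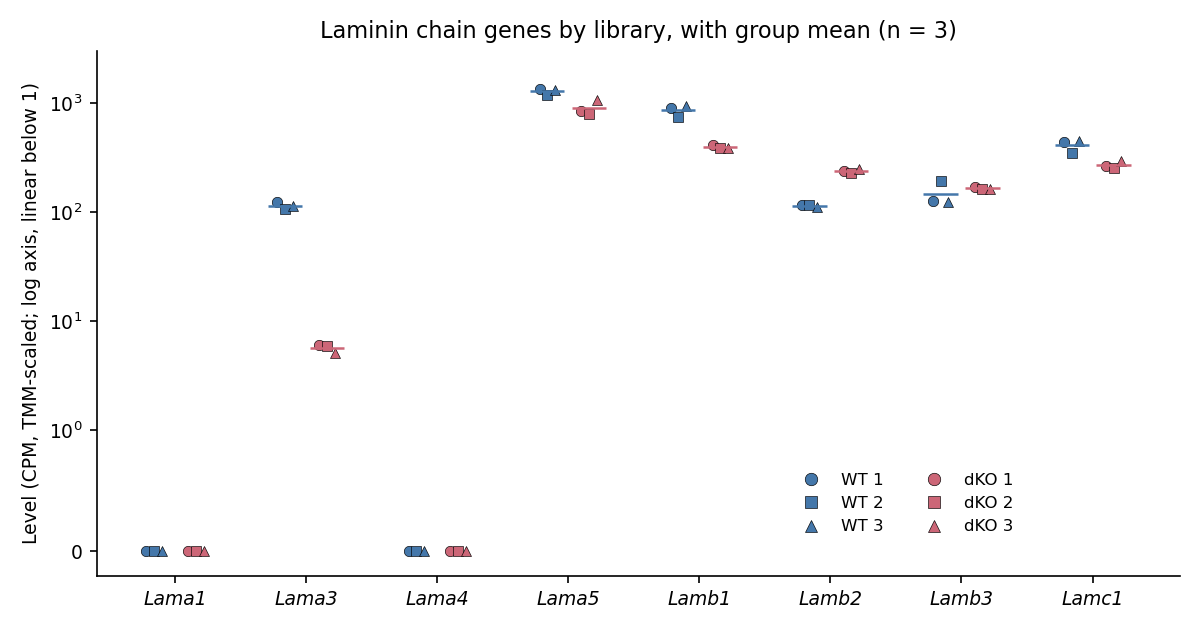
Level of each laminin chain gene in each library, in CPM with TMM scaling on an axis that is logarithmic above 1 and linear below; blue points are WT, red points are libraries labelled dKO, and bars are group means of 3 libraries. Lama1 and Lama4 lie at 0 in all 6 libraries, and Lama3 lies between 5.14 and 6.04 CPM in the libraries labelled dKO against 107 to 122 CPM in WT.

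Lama3 (ENSMUSG00000024421, GRCm38 chromosome 18, 12333819 to 12583013, plus strand) encodes the alpha chain of the hemidesmosome-anchoring laminin. It stood at 122, 107 and 112 CPM in WT 1 to 3, and at 6.04, 5.95 and 5.14 CPM in dKO 1 to 3. All WT libraries lay far above all libraries labelled dKO, and WT 2 and dKO 3 were the lowest of their groups. The fitted level was 19.96-fold lower, with a log2 fold change of -4.32 ± 0.11 (SE, edgeR adjusted p = 2.18e-08), and 2.47% of tested genes had a lower fold change. Counts remained at 221 to 242 per library labelled dKO, well above the floor, so a residual transcript was measured. Gm29200, an antisense gene whose exons overlap those of Lama3, held 16 to 29 counts in WT and 0 to 2 in the libraries labelled dKO. Reads of this pair cannot be told apart without strand, but the partner's counts were small beside those of Lama3.

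Lama5 (ENSMUSG00000015647, chromosome 2, 180176373 to 180225859, minus strand) encodes the widely expressed alpha chain of mature epithelial and vascular basement membranes. Its levels were 1347, 1184 and 1312 CPM in WT 1 to 3 and 834, 785 and 1054 CPM in dKO 1 to 3. The groups did not overlap, but dKO 3 came closer to WT than the other libraries of its group. The log2 fold change was -0.52 ± 0.11 (edgeR adjusted p = 0.00359), a 1.44-fold lower level. Tested against a 1.5-fold change rather than against none, Lama5 was no longer called (edgeR adjusted p = 0.781). In bulk spheroids, fewer cells that express a gene and less RNA per cell cannot be told apart.

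Lama1 (chromosome 17, 67697259 to 67822647), the alpha chain gene of embryonic basement membranes, and Lama4 (chromosome 10, 38965515 to 39110188), that of vessels, muscle and fat, had 0 counts in all 6 libraries. They were not tested, and their levels lay below the floor. Lama2, the muscle and nerve alpha chain gene, is no member and was also at or under the floor, at most 12 counts in a library. Among the alpha chain genes only Lama3 and Lama5 were therefore measured above the floor in these 6 libraries.

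Lamb1 (ENSMUSG00000002900, chromosome 12, 31265234 to 31329644, plus strand), the most widely used beta chain gene, stood at 888, 742 and 930 CPM in WT and at 406, 389 and 382 CPM in dKO 1 to 3. The lowest WT library, WT 2, was still well above the highest library labelled dKO. The log2 fold change was -1.12 ± 0.09 (edgeR adjusted p = 1.09e-05), a 2.17-fold fall that was also called against a 1.5-fold change.

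Lamb2 (ENSMUSG00000052911, chromosome 9, 108479736 to 108490530, plus strand), the beta chain gene known from kidney glomeruli and the neuromuscular junction, went the opposite way. It was at 115, 115 and 109.9 CPM in WT and at 238, 228 and 247 CPM in dKO 1 to 3. The libraries within each group lay close together, and the groups were far apart. Lamb2 rose 2.09-fold, a log2 difference of 1.07 ± 0.07 (SE, edgeR adjusted p = 2.07e-06), and was the only member called higher among all 6 libraries.

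Lamb3 (ENSMUSG00000026639, chromosome 1, 193207699 to 193343878, plus strand), the beta chain gene whose product pairs with that of Lama3, did not follow Lama3. It was at 126, 191 and 124 CPM in WT and at 169, 163 and 161 CPM in dKO 1 to 3. WT 2 was the highest of all libraries, while the other WT libraries were the lowest, so the groups overlapped. The log2 fold change was 0.16 ± 0.16 (edgeR adjusted p = 0.408), which does not show that the levels are equal. Without WT 2 it was 0.39 ± 0.06 and Lamb3 was called higher (edgeR adjusted p = 0.000988). Without WT 2 and dKO 3 it was 0.41 ± 0.05 (edgeR adjusted p = 3.81e-05). The call of Lamb3 therefore rests on WT 2, and with either setting 2 members were called higher.

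Lamc1 (ENSMUSG00000026478, chromosome 1, 153218922 to 153332786, minus strand), the gamma chain gene of most laminins, was at 437, 344 and 449.8 CPM in WT and at 261, 255 and 292 CPM in dKO 1 to 3. WT 2 was the lowest WT library and dKO 3 the highest of its group, and the groups did not overlap. The log2 fold change was -0.61 ± 0.11 (edgeR adjusted p = 0.00125), a 1.52-fold lower level that was not called against a 1.5-fold change (edgeR adjusted p = 0.439). Lamc3, a gamma chain gene that is no member, had 0 counts in every WT library and 0.867 ± 0.383 CPM in those labelled dKO, at least 3.25-fold higher (edgeR adjusted p = 0.000815), with levels close to the floor.

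**Figure D2:**
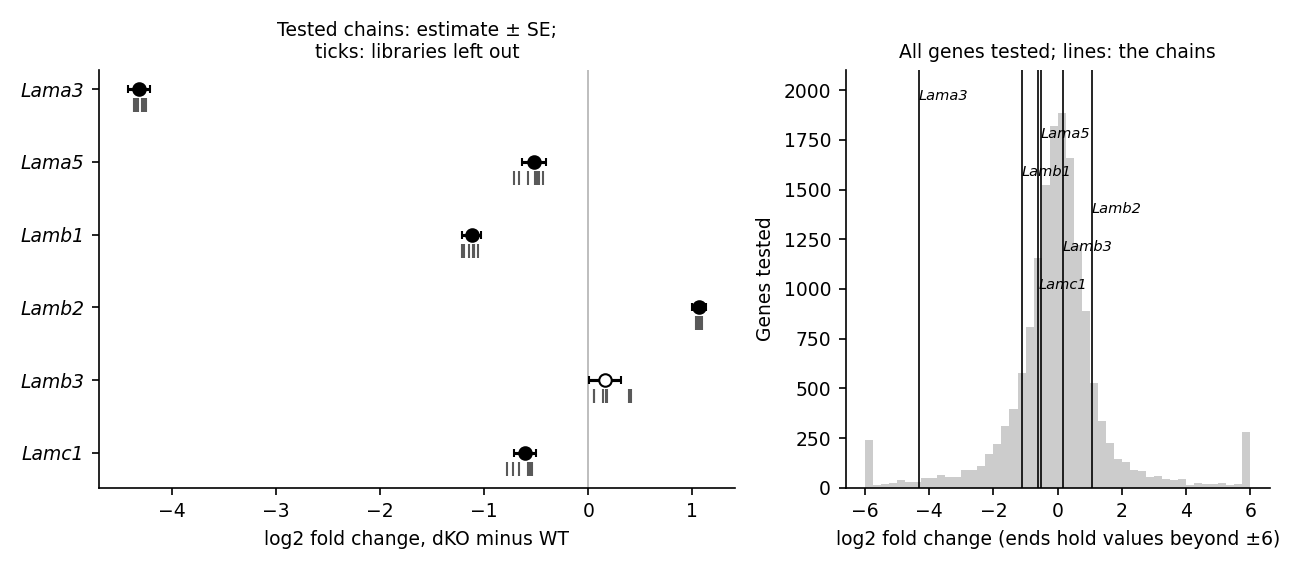
Left, log2 fold change of the 6 tested chain genes (dKO minus WT, bars are SE; filled points were called, the open point was not), with ticks for the estimates after leaving out single libraries or WT 2 and dKO 3. Right, the same values as lines over the distribution of all 15807 tested genes; Lama3 at -4.32 lies in the lower tail, and the ticks of Lamb3 run from 0.05 to 0.41.

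In total 4 members fell, 1 rose, 1 was not called and 2 were not tested, where 28.7% of all tested genes were called lower and 28.6% higher. The 8 genes together took 0.270% to 0.302% of all counts in WT libraries and 0.183% to 0.217% in those labelled dKO. The mean share was 0.290 ± 0.0180% against 0.197 ± 0.0175% (SD, n = 3, two-sided exact permutation p = 0.10, the smallest that 3 against 3 allows).

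Levels of different genes were compared per kilobase of annotated exon. In WT the order was Lama5 at 113 ± 7.53, Lamb1 at 86.0 ± 9.92, Lamc1 at 49.6 ± 6.97, Lamb3 at 22.2 ± 5.76, Lamb2 at 18.7 ± 0.523 and Lama3 at 10.6 ± 0.704 CPM per kb. Lamb3 and Lamb2 overlapped, the other neighbours in this order did not. In the libraries labelled dKO, Lama5 led at 78.2 ± 12.6 CPM per kb. Lamb1 at 39.6 ± 1.26 and Lamb2 at 39.1 ± 1.52 CPM per kb overlapped there, followed by Lamc1 at 32.6 ± 2.39, Lamb3 at 24.8 ± 0.634 and Lama3 at 0.532 ± 0.0460. With the longest transcript as length, Lamb1 came first in WT, at 128 to 161 CPM per kb against 104 to 118 for Lama5, and Lamb1 and Lamb2 no longer overlapped in the libraries labelled dKO (66.0 to 70.3 against 40.6 to 43.8).

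The beta chain class changed its make-up. Lamb1 made up 70.2%, 61.0% and 71.8% of the class per length in WT 1 to 3 and 38.8%, 38.7% and 37.2% in dKO 1 to 3. Lamb2 made up 13.8% to 15.5% of the class in WT and 37.0% to 39.2% in the libraries labelled dKO. The mean share of Lamb1 was lower by 29.44 percentage points in those libraries (difference -29.44) and that of Lamb2 higher by 23.04, with no overlap between groups. The Lamb3 share was 14.9%, 23.5% and 14.4% in WT and 24.2%, 24.3% and 23.5% in dKO 1 to 3, so that WT 2 nearly reached the other group. The ratio of Lamb1 to Lamb2 per length was 3.95 to 5.19 in WT and 0.949 to 1.05 in the libraries labelled dKO. With the longest transcript as length, Lamb1 made up 46.2% to 47.7% and Lamb2 28.7% to 30.7% of the class in the libraries labelled dKO. A ratio near 1 thus depends on the length used.

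The alpha chain class shifted to Lama5. Lama3 made up 8.77%, 8.75% and 8.33% of the class in WT 1 to 3 and 0.762%, 0.796% and 0.515% in dKO 1 to 3, and Lama5 nearly all of the rest. The ratio of Lamb3 to Lama3, partners in the same trimer, was 1.67 to 2.89 per length in WT and 44.5 to 50.9 in the libraries labelled dKO. The ratio of Lama5 to Lamc1 was 2.12 to 2.50 in WT and 2.23 to 2.62 in the libraries labelled dKO, which overlapped (exact permutation p = 0.60). Each share of Lama3, Lama5 and the beta chain genes had a two-sided exact permutation p of 0.10, or 0.15 after Benjamini-Hochberg adjustment over the 9 shares tested, and 3 against 3 libraries cannot go lower than 0.10.

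**Figure D3:**
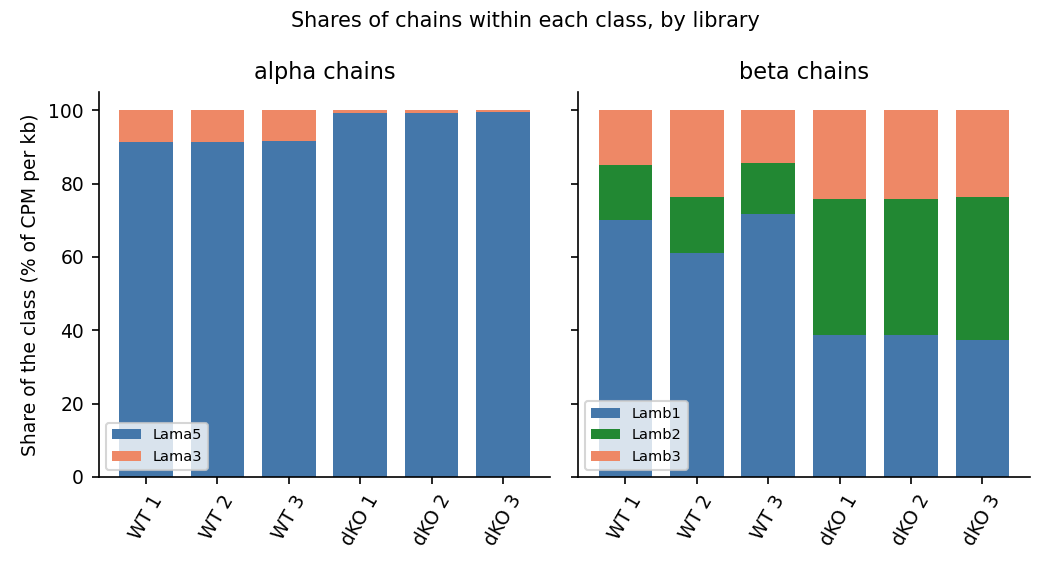
Share of each chain gene within the alpha and beta classes in each library, as percent of the class's CPM per kb of exon; genes under 0.3% of their class are not drawn. Lamb2 widens from 13.8% to 15.5% in WT to 37.0% to 39.2% in the libraries labelled dKO, and Lama3 makes up 8.33% to 8.77% in WT against 0.515% to 0.796%.

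Summed per length, the alpha class stood at 123.1 ± 8.16 in WT and 78.8 ± 12.5 CPM per kb in the libraries labelled dKO, and the beta class at 127 ± 3.99 and 104 ± 2.14 (SD, n = 3). Neither class overlapped between the groups.

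The nearest protein-coding genes did not follow the chain genes in a common pattern. Ttc39c, a tetratricopeptide repeat gene 16.9 kb beyond Lama3, fell with it from 31.9 ± 3.48 to 4.75 ± 0.746 CPM (edgeR adjusted p = 1.52e-06), while Ankrd29 on the other side, at 0.443 and 0.754 CPM, was not called. Dld, which encodes a mitochondrial dehydrogenase and lies 1.63 kb from Lamb1, rose from 102 ± 4.59 to 221 ± 11.6 CPM while Lamb1 fell (edgeR adjusted p = 2.63e-06). Adrm1, a proteasome receptor gene 0.086 kb from Lama5, and Rps21, a ribosomal protein gene on its other side, rose by log2 fold changes of 0.39 ± 0.08 and 0.34 ± 0.08 while Lama5 fell. Beside Lamb2, Usp19, a deubiquitinase gene 0.071 kb away, and Ccdc71 were higher by 0.35 ± 0.07 and 0.39 ± 0.08 on the log2 scale, less than Lamb2 itself. With so short a gap and no strand, reads at the border of Lama5 and Adrm1 or of Lamb2 and Usp19 can be assigned to either gene. Against a 1.5-fold change Adrm1, Rps21, Usp19 and Ccdc71 were no longer called, and neither was Lama5.

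**Figure D4:**
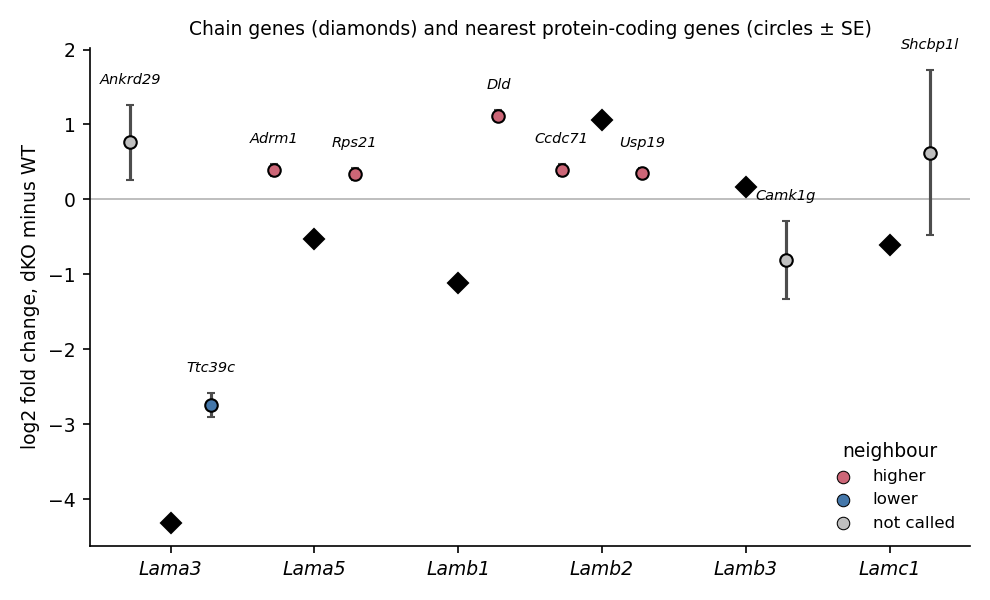
Log2 fold change (dKO minus WT) of the tested chain genes (diamonds) and of nearest tested protein-coding genes named in the text or not called (circles, bars are SE, coloured by call), with the lower coordinate on the left. Ttc39c lies below 0 with Lama3, whereas Dld, Adrm1 and Rps21 lie above 0 beside chain genes that lie below.

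For the 3 members with the smallest adjusted p, the genes of most similar profile over the 6 libraries were taken. The measure was the mean absolute difference of log2 CPM, with 0.5 CPM added and centred on the WT mean. Closest to Lama3 were Dusp6 at 0.107 and Dusp2 at 0.110, both MAP kinase phosphatase genes, and Eml1, a microtubule-binding protein gene, at 0.117. Dusp2 stood at 0.837, 0.909 and 0.419 CPM in dKO 1 to 3, near the floor, so its distance depends on the added 0.5 CPM. Its fitted log2 fold change was -4.94. Closest to Lamb2 were Rexo2, Cox5a and Mapkapk5 at 0.0277 to 0.0343, and closest to Lamb1 were Snapc3, Stard9 and Rnf157 at 0.0478 to 0.0510. The distances are a description, since most of each profile lies in the step between the groups.

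Genes whose products receive laminins fell more often than they rose. Of 14 laminin receptor genes, 10 fell, 3 rose and 1 was not called, with a median log2 fold change of -0.90 against -0.01 over all tested genes, where 28.7% were called lower and 28.6% higher. Itga3, the main epithelial receptor subunit for the Lama3 and Lama5 chains, fell from 1568 ± 30.9 to 659.9 ± 17.9 CPM (edgeR adjusted p = 6.8e-07). Itgb4, the hemidesmosome integrin subunit, was at 611, 566 and 602 CPM in WT and at 111, 106 and 159 CPM in dKO 1 to 3, a log2 difference of -2.24 ± 0.15 (SE, edgeR adjusted p = 3.91e-06), and its partner Itga6 had one of -0.95 ± 0.20. Itgb1, the beta subunit shared by the other laminin-binding integrins, was not called at 1157 ± 43.5 and 1189 ± 112 CPM (edgeR adjusted p = 0.711).

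Itga1 and Itga2 encode subunits for collagens and laminins. Itga1 was at 6.69, 3.75 and 8.04 CPM in WT and at 0.916, 0.590 and 0 CPM in dKO 1 to 3, near the floor there. Its log2 fold change of -3.63 ± 0.89 (SE) was -4.39 without dKO 1 and -3.03 without dKO 3, so its size is uncertain. Itga2 had one of -2.23 ± 0.32. Dag1, the dystroglycan gene, had a log2 fold change of -0.33 ± 0.07, and Cd151, a tetraspanin gene that partners laminin-binding integrins, one of -0.84 ± 0.08. The syndecan genes Sdc1 and Sdc2 fell by 0.60 and 1.28, and Sdc4 from 346 ± 38.6 to 122 ± 7.47 CPM. The rises were those of Bcam, which encodes a receptor for the Lama5 chain, from 0.535 ± 0.0340 to 20.8 ± 4.70 CPM (edgeR adjusted p = 4.01e-07), of Itga7, the muscle laminin receptor subunit, from 2.94 ± 0.446 to 5.65 ± 0.362 CPM, and of Rpsa, a ribosomal protein gene also described as a laminin receptor, by 0.40 ± 0.10. Against a 1.5-fold change Itga6, Itga7, Dag1, Sdc1 and Rpsa were no longer called.

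**Figure D5:**
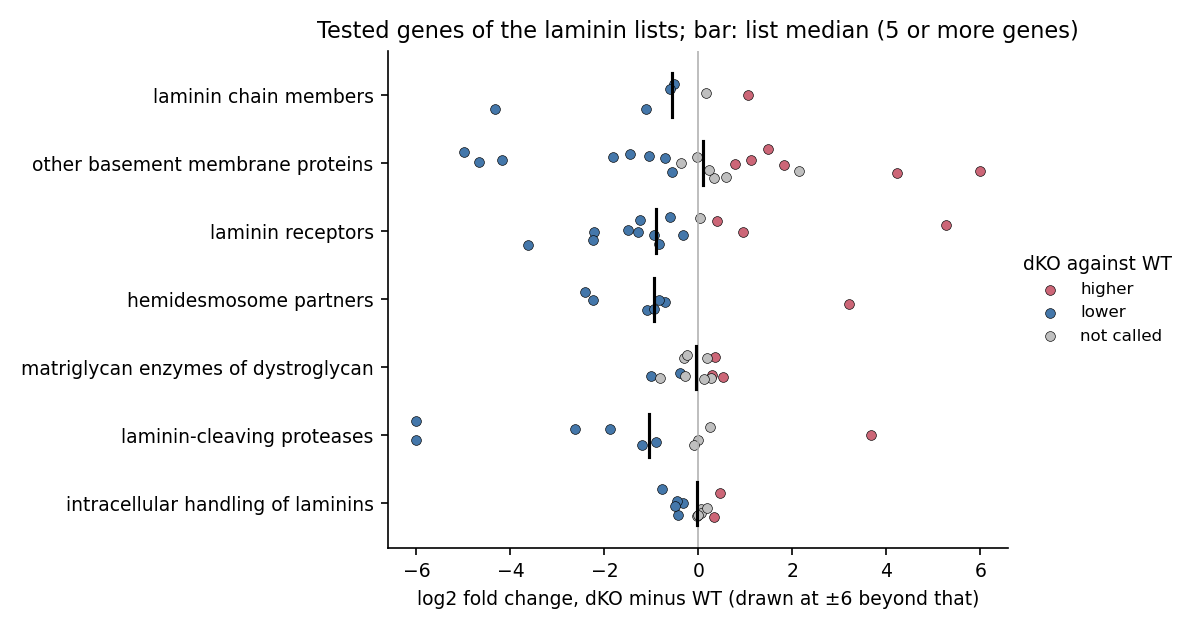
Log2 fold change (dKO minus WT) of each tested gene of the chain members and of the other laminin lists; red points were called higher, blue lower, grey not called, bars are medians of lists with at least 5 tested genes, and values beyond 6 in size are drawn at 6. Receptors, hemidesmosome partners and laminin-cleaving proteases have medians of -0.90, -0.95 and -1.05, and the other basement membrane proteins one of 0.10.

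Hemidesmosome partners overlap this list by Itga6, Itgb4 and Cd151. Of 8 such genes 7 were tested, of which 6 fell, those 3 shared genes among them, and 1 rose, with a median of -0.95. Over all tested genes 57.3% were called, 28.7% as lower. Dst, a linker of intermediate filaments to integrins, stood at 585 ± 45.1 CPM in WT and fell to 356 ± 31.1 CPM (edgeR adjusted p = 0.000134), but was not called against a 1.5-fold change. Krt14, which encodes a basal keratin, stood at 14.6 ± 3.70 CPM in WT and rose to 135 ± 42.9 CPM (edgeR adjusted p = 5.29e-05), and its usual partner Krt5 had 0 counts in all 6 libraries.

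Basement membrane proteins other than laminins went both ways. Of 29 genes 20 were tested, of which 8 fell, 6 rose and 6 were not called, with a median of 0.10, also with Fras1 at its bound, beside 28.7% called lower and 28.6% higher over all tested genes. Npnt, the gene of the integrin ligand nephronectin, stood at 391 ± 1.28 CPM in WT and fell to 12.4 ± 0.981 CPM (edgeR adjusted p = 5.56e-09), and Col18a1, a basement membrane collagen gene, had a log2 fold change of -4.66 ± 0.09. Col4a5, which encodes a type IV collagen chain, stood at 112 ± 3.12 CPM in WT and rose to 395 ± 27.9 CPM (edgeR adjusted p = 2.28e-07). The other tested type IV collagen genes did not rise with it. Col4a1 fell from 661 to 448 CPM and Col4a6 from 16.6 to 4.73 CPM, while Col4a2 and Col4a4 were not called. The fall of Col4a1 was not called against a 1.5-fold change. Fras1, at 0 in WT, was at least 89.9-fold higher. Direct binding partners of laminins were named after their values were seen. Agrn, which encodes agrin, stood at 529 ± 11.1 CPM in WT and rose to 1143 ± 138 CPM, and Hspg2, which encodes perlecan, stood at 642 ± 56.9 CPM and fell to 394 ± 56.9 CPM (edgeR adjusted p = 1.09e-05 and 0.00061). Against a 1.5-fold change Hspg2 was no longer called (edgeR adjusted p = 0.15). The nidogen genes, whose products bridge laminin and type IV collagen, lay at the floor: their WT means were under it and the others not far above. Nid1 at 0.148 ± 0.151 and 0.669 ± 0.207 CPM was not called, and Nid2 at 0.0287 ± 0.0498 and 0.598 ± 0.289 CPM was called higher (edgeR adjusted p = 0.00866).

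Genes for proteases that can cleave laminins were mostly lower among those called. Of 15 genes 10 were tested, of which 6 fell, 1 rose and 3 were not called, with a median of -1.05, beside 28.7% called lower and 28.6% higher over all tested genes. Bmp1, whose product processes laminin chains outside the cell, declined from 1238 ± 22.7 to 200.5 ± 9.94 CPM (edgeR adjusted p = 3.01e-08), and Plau, the urokinase gene, from 278 ± 3.08 to 121 ± 4.71 CPM. Ctsl, a cathepsin gene, had a log2 fold change of -1.87 ± 0.11. Mmp9, a gelatinase gene, was at 772, 590 and 729 CPM in WT and at 0.419, 0.172 and 0.256 CPM in dKO 1 to 3, near the floor there, so the size of its fall is uncertain.

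Genes that sugar dystroglycan for laminin binding and genes of laminin folding and export were called in both directions, beside 57.3% called over all tested genes, and nothing particular is read from their counts. Of 12 genes of the matriglycan pathway, 3 rose, 2 fell and 7 were not called, with a median of -0.06. B4gat1, which primes the matriglycan chain, had a log2 fold change of -0.40 ± 0.09 and Rxylt1, which adds xylose, one of 0.36 ± 0.10 (edgeR adjusted p = 0.00416 and 0.0115). Of 12 folding and export genes, 5 fell, 2 rose and 5 were not called, with a median of -0.02. The falls included Sec24d, Sec23a, Lman1 and P4hb, of the secretory coat, the cargo receptor and protein disulfide isomerase, by 0.76, 0.49, 0.44 and 0.32 on the log2 scale, none of which was called against a 1.5-fold change.

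In the libraries labelled dKO, the epithelial and fibroblast marker lists held genes called lower and genes called higher. Called genes were all lower in the endothelial and pericyte list. They were all higher in the basal and myoepithelial list and in the leukocyte list. The counts below stand beside 57.3% called over all tested genes, 28.6% as higher and 28.7% as lower. Of 10 endothelial and pericyte markers, Kdr, Emcn and Cldn5 had 0 counts in all libraries, Cdh5 reached 0.172 CPM at most, and the summed list was at 22.9 to 26.6 CPM in WT and 4.28 to 6.76 CPM in the libraries labelled dKO, most of it Flt1, with 2 of 4 tested genes lower and none higher. Of 11 fibroblast markers, Lum and Dpt were at 0 in all libraries, and the summed list, mostly Pdgfra and Col1a1, was at 41.7 to 66.1 CPM in WT and 5.12 to 7.94 CPM in the libraries labelled dKO, with 3 of 5 tested genes lower and 2 higher. Of 9 leukocyte markers 3 were tested and all 3 were called higher, namely Csf1r, Cd68 and Itgam. Csf1r was at 3.55, 14.2 and 1.01 CPM in WT and at 188, 189.6 and 62.7 CPM in dKO 1 to 3, and Cd68 at 2.15 ± 0.207 and 15.6 ± 1.80 CPM. The call of Csf1r was lost without WT 1 (edgeR adjusted p = 0.0669). Itgam was at 0 in WT and at most 0.466 CPM in the other group, Cd3e was at 0 in all libraries and Ptprc reached 0.418 CPM at most. The leukocyte sum was at 3.38 to 16.7 CPM in WT and 77.2 to 209 CPM in the libraries labelled dKO, mostly Csf1r. Of 8 basal and myoepithelial markers, Krt5 was at 0 and the sum, mostly Krt14, was at 12.7 to 18.6 CPM in WT and 114 to 188 CPM in the libraries labelled dKO, with 1 of 3 tested genes higher and none lower. The 8 epithelial markers summed to 6237 to 6362 CPM in WT and 4996 to 5704 CPM in the libraries labelled dKO, with 2 higher, 4 lower and 2 not called. The part of these markers in the laminin differences was not tested.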

How the data were processed

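RNA-seq was analysed for 3 WT libraries and 3 libraries labelled dKO, grouped by sample title. The authors deposited estimated counts per gene as whole numbers, not normalized. HISAT2 2.2.1, StringTie 2.2.1 and the build GRCm38 (mm10) were used, per the submitters' processing notes. Which annotation, counting step and strand setting they used is not stated in the labels or headers. The 6 files by sample equalled the series table. GENCODE M21 matched 48058 of 48820 identifiers and gave positions and exon lengths. Promoters came from RefSeq.

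The test was that of edgeR 4.0.16 (R 4.3.3): filterByExpr by group, TMM, robust quasi-likelihood F-test, genotype as the only term, Benjamini-Hochberg adjustment over 15807 genes. The SE is the absolute log2 fold change over the square root of F. DESeq2 1.42.0, other scalings, filters and thresholds, a replicate block and left-out libraries were alternatives. Members and lists were chosen with earlier results of these data known. The text names all members, other chains and receptors, the 4 smallest adjusted p of each other list, neighbours of called members and the nearest profiles, except items not reported here; other genes are given as such or as markers.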

Additional observations from a re-analysis of the deposited data

How the results depend on the processing

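Of 1110 log2 fold changes of 70 named genes under 16 alternatives, 1070 kept their side of the threshold and 37 were no longer called. Of the rest, 2 became called (Lamb3) and 1 became called in the opposite direction. This was Col4a2, not called at -0.03 and called at 0.19 without WT 2 and dKO 3. It ran from -0.114 to 0.116 with single libraries left out. Genes that were not called could also change sign, as Itgb1 did (-0.0094 to 0.115) and Shcbp1l (-0.274 to 2.29). Testing against 1.5-fold, a stricter null, 4556 of all genes were called (2197 higher, 2359 lower), with 2 members lower and, of the genes of the laminin-related lists, 9 higher and 21 lower instead of 17 and 35. With single libraries left out, 8041 to 9120 genes were called against 9060, 1 to 2 members higher and 4 lower, and without WT 2 and dKO 3 together 10139 genes and 2 members higher. Same-numbered libraries deviated from their group means with correlations of -0.089, 0.094 and 0.134 over genes, and WT 1 correlated best with dKO 3. As WT 2 and dKO 3 stood apart within their groups, these values cannot show whether replicate numbers paired the samples. With a replicate block 8658 genes were called, again 1 member higher and 4 lower. All class shares kept their direction with another length or libraries left out. Depth limits Lama1, Lama4, Lamc3 and the nidogen genes, all at or near the floor.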
